A study of Homo sapiens with 6 samples.

Results

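The cytosolic ribosomal proteins are the protein components of the ribosome that translates nuclear-encoded messages. Their genes were taken here as every probe set whose only annotated gene symbol starts with RPL or RPS and a digit, or is RPLP0, RPLP1, RPLP2 or RPSA. The S6 kinases, the Y-linked form of RPS4 and pseudogenes were left out, and each gene was read by its brightest probe set, judged by the average of all 6 arrays. This gave 74 of the 18132 genes measured, from 191 probe sets: 41 of the large subunit, 23 of the small subunit, 8 paralogs (RPL3L, RPL7L1, RPL10L, RPL22L1, RPL26L1, RPL36AL, RPL39L and RPS27L) and 2 non-coding genes that carry a ribosomal protein symbol (RPL26L1-AS1 and RPL34-DT). Of the ribosomal protein genes looked for by name, 13 had no probe set annotated to them alone and are not analysed here, among them RPLP0, RPSA, RPS27A, RPL15 and RPS26. RPS26 has a probe set that lists its symbol for 2 gene entries, which was counted as several genes. Most chosen probe sets were of types that can also read related transcripts (37 with the suffix _x_at and 22 with _s_at). For a family with many processed pseudogenes, the values of such probe sets are uncertain as readings of 1 gene.

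The cells were BCPAP, an established line from a human papillary thyroid carcinoma. They carried lentivirus with a short hairpin RNA against CSF2, which encodes the cytokine GM-CSF (shCSF2, n = 3), or a hairpin without a target (shCtrl, n = 3). Both groups were transduced and then selected with puromycin, starting 48 h after transduction and lasting 7 days, and 200 ng of total RNA per sample was labelled for Affymetrix PrimeView arrays. The labels call the arrays biological replicates; how many hairpins were used and what they target within CSF2 is not given in the sources used here.

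A ribosome holds 1 copy of nearly every ribosomal protein, and the cell makes these proteins in matched amounts. Their messages are short, abundant and long-lived, and most begin with a run of pyrimidines at the cap, the terminal oligopyrimidine motif, through which mTOR and the RNA-binding protein LARP1 control translation. Because that control acts mainly on the use of the message, an RNA level says little about how much protein is made. Unassembled ribosomal proteins are degraded, and some of them, with RPL5 and RPL11 at the centre, bind MDM2 when assembly fails.

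The motif is shown here because it defines the family's shared control. Whether the run goes with the array differences was not tested. Each line gives the 15 bases before and the first 15 bases of the annotated transcript from RefSeq (GRCh38.p14), 5′ to 3′ on the gene's strand. Capitals mark the longest unbroken run of C or T that reaches into the 5 bases on either side of the start. The first 5 genes are those whose array values passed the test below, and the others are a reference gene (RPS6), a pair of a ribosomal protein and its paralog (RPL22, RPL22L1) and the paralog of RPS27.
RPL27A (chr11:8682777-8682806, + strand): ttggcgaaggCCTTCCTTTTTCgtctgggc
RPL7L1 (chr6:42879601-42879630, + strand): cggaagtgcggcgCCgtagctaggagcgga
RPL35A (chr3:197950175-197950204, + strand): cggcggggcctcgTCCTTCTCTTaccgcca
RPL31 (chr2:101002274-101002303, + strand): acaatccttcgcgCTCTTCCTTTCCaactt
RPS27 (chr1:153990747-153990776, + strand): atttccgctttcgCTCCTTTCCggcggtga
RPS27L (chr15:63157463-63157492, - strand): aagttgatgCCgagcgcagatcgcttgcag
RPS6 (chr9:19380222-19380251, - strand): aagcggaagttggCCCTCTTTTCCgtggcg
RPL22 (chr1:6199581-6199610, - strand): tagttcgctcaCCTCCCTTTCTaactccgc
RPL22L1 (chr3:170870181-170870210, - strand): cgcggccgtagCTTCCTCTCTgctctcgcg
Runs of 9 to 12 pyrimidines lay at the starts of RPL27A, RPL35A, RPL31 and RPS27, and the longest at RPL7L1 and RPS27L was 2. It was also 2 at the paralogs RPL10L and RPL26L1, which like RPS27L did not pass the test below. A run of at least 7 was found in 46 of the 62 members with an annotated start in the table (74.2%), against 2933 of 14425 genes on the array (20.3%). Within the family it was present in 44 of 54 ribosomal proteins of the 2 subunits (81.5%) and in 2 of 6 paralogs. Of the other known terminal oligopyrimidine messages, 17 of 22 held one (77.3%). A run is a description of these letters and does not show how a message is translated.

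The 6 arrays had medians from 5.77 to 5.79 on the deposited log2 scale. Over all probe sets they correlated at 0.9981 to 0.9983 within groups and at 0.9936 to 0.994 between groups. The target itself could not be checked, because 0 probe sets were annotated to CSF2. Thyroid transcription factors were present (PAX8 read 8.07 in shCSF2 and 8.11 in shCtrl, NKX2-1 9.37 and 9.78), as were the keratins KRT7, KRT18 and KRT8. Of 6 epithelial markers only KRT8 passed, at 10.17 and 10.42 (difference -0.26, limma adjusted p = 0.00518). Thyroglobulin (TG, 4.58 and 4.61), TSHR, SLC5A5, CDH1 and KRT19 lay near the low end of the scale. Of 4 leukocyte markers measured, PTPRC read 2.33 and 2.35, LYZ 2.9 and 2.8, CD14 4.2 and 4.1, and CD3E 4.6 and 4.7. The summed level of 5 fibroblast markers was 7.39 to 7.48 in shCSF2 and 7.95 to 8.07 in shCtrl, led by COL1A1 (6.34 and 7.27). That of 7 thyroid markers was 10.31 to 10.36 and 10.54 to 10.56, and that of 3 C cell markers 7.40 to 7.45 and 7.51 to 7.58, so the sums of these 3 lists moved with the groups. The thyroid sum was carried by NKX2-1 (-0.42), while FOXE1 (0.12) and HHEX (0.11) read higher in shCSF2 without overlap and did not pass, and the C cell sum by SYP (-0.13), beside CALCA (0.02) and CHGA (-0.03). The difference between the 3′ and 5′ control probes of GAPDH, a measure of RNA integrity, was -0.05 to -0.03 in shCtrl and -0.02 to 0.00 in shCSF2 (exact two-sided permutation p = 0.1, the smallest that 3 against 3 arrays allow). For ACTB it was 0.54 to 0.63 and 0.57 to 0.66 (exact p = 0.6). The part of marker levels and RNA integrity in the results that follow was not tested.

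As read by their brightest probe sets, most ribosomal protein messages differed little between the knockdown and the control. Of the 74 members, 5 passed the test, which is 6.76% against 32.7% of all genes, with limma's moderated test and Benjamini-Hochberg adjusted p under 0.05 over 18132 genes. RPL27A and RPL7L1 were higher in shCSF2 (2 members, 2.70%, against 16.7% of all genes), and RPL35A, RPL31 and RPS27 were lower (3 members, 4.05%, against 16.0%). When any 1 array was left out, 2 members were higher and 1 was lower, except without shCSF2 replicate 2, where 2 were lower. The median log2 difference, shCSF2 minus shCtrl, was -0.02 over the members and -0.03 over all genes. In size, without regard to sign, the median was 0.033 against 0.107. The difference was under 0.1 in 65 members (87.8%, against 47.5% of all genes), and in 66 the 95% confidence interval lay within 0.2 of zero (89.2%, against 32.2%).

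**Figure D1:**
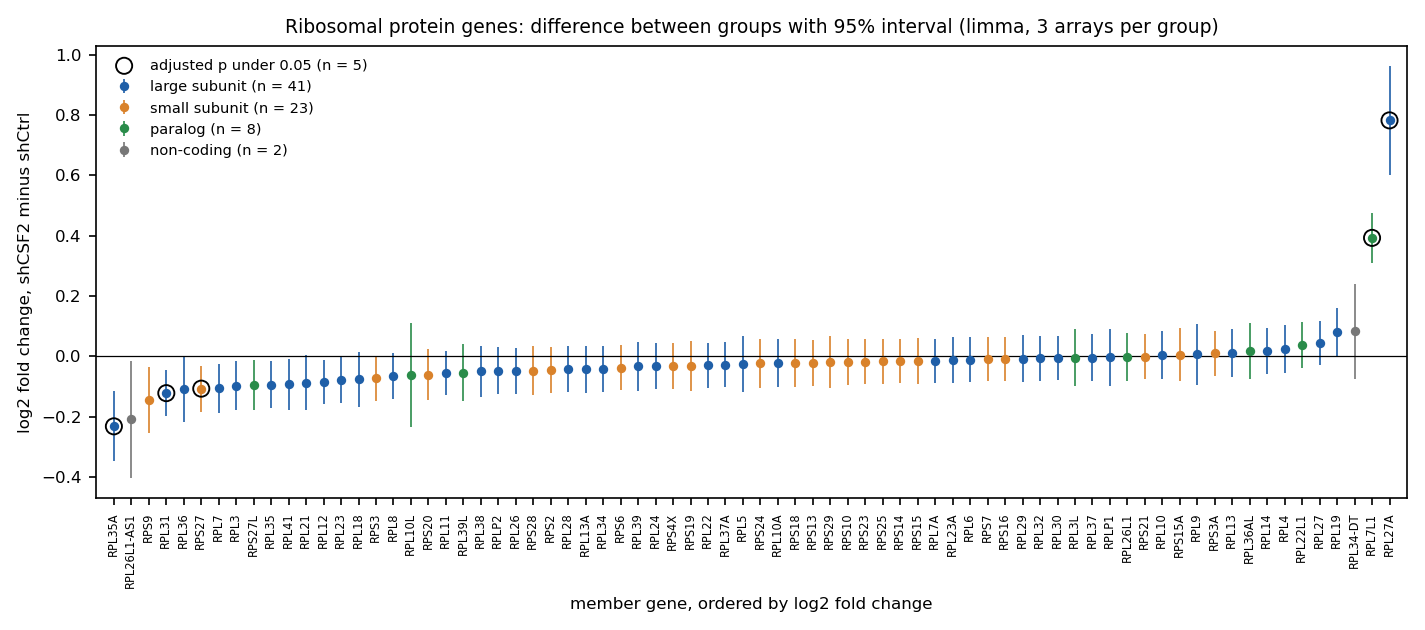
Log2 difference between shCSF2 and shCtrl of each of the 74 members, in rank order and coloured by subunit or class, with 95% confidence intervals from limma and the members that passed the test circled. Most intervals crowd around zero, 60 members lie below it and 14 above it, and RPL27A (0.78) and RPL7L1 (0.39) stand apart at the upper end.

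The number of members called depended on how the variance was modelled. The standard test pools 1 prior spread over dim and bright genes. When the prior was allowed to follow the signal, with robust estimation, the median standard error of the members went from 0.0326 to 0.0163, and 28 of the 74 members passed (37.8%), 4 higher and 24 lower. The share over all genes was then 37.8% as well. Of those 28 members, 20 differed by less than 0.1 and 3 by at least 0.2, so most calls were of small differences. Restricting the fit to genes with a mean of at least 5 called 2 higher and 11 lower of 72 members (18.1%, against 51.4% of all genes kept). With genes at or above the median gene it was 3 higher and 14 lower of 69 (24.6%, against 64.0%). RPL27A, RPL7L1 and RPL35A were called in each of these fits.

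Members lay more often below zero than above it. In the deposited values 60 of 74 were below (81.1%, against 57.1% of all genes), and the count depended on the scaling, at 36 of 74 after median centring of the arrays, 38 after cyclic loess, 45 after quantile normalization and 64 after centring on other bright genes. The 3 shCSF2 arrays did not overlap the 3 shCtrl arrays in 36 members, which is 48.6% against 46.7% of all genes. By direction, 30 members lay below (40.5%, against 24.6% of all genes) and 6 above (8.11%, against 22.1%). The calls split into 2 higher and 3 lower in the deposited values, 3 and 3 after cyclic loess, 2 and 1 after median centring, 2 and 5 after a further quantile normalization, and 2 and 5 after centring on other bright genes. Over these scalings 4.05% to 9.46% of the members were called, against 31.9% to 33.1% of all genes. In an array of bulk RNA, a change in the kind of cells and a change in RNA per cell cannot be told apart.

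The signal of the members was high. The median of their mean log2 values was 13.01, against 6.28 over all genes, on arrays whose brightest probe sets read 13.91 to 14.09, and 59 of the 74 had a mean of at least 12. Among those 59, 2 passed the test (3.39%), RPL31 and RPS27, against 31 of the 77 other genes past the same level (40.3%, 15 higher and 16 lower). The median size of the difference was 0.029 in the first set and 0.071 in the second. The sets share only the lower bound and are not matched for brightness, since the median of their mean values was 13.20 in the members and 12.45 in the others. With the signal-dependent prior, 51 of the 77 other bright genes passed (66.2%). Signal also reflects probe sequence, so these values order no messages by abundance. Most members were thus read near the top of the scale, and in some genes a dimmer probe set differed more than the brightest, as for RPL31 and RPL28 below and for RPS29, a small-subunit protein chosen after its values were seen (-0.02 at the brightest probe set and -0.35 at one that read 7.39 and 7.74). Whether differences are compressed near the top of the scale was not tested.

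Of the 41 large-subunit members, 1 was higher and 2 were lower (7.32%, against 32.7% of all genes), and their median difference was -0.03. RPL27A, a large-subunit protein, read 7.09, 7.23 and 7.04 in shCSF2 and 6.44, 6.20 and 6.37 in shCtrl. All 3 shCSF2 arrays lay above all 3 shCtrl arrays. The log2 difference was 0.78 ± 0.08 (SE, n = 3 per group), a 1.72-fold higher level (limma adjusted p = 0.000392), and it kept its call in all 18 other settings, at 0.71 to 0.83. The probe set is the only one annotated to RPL27A alone, and its level is far below that of most members. Settings that choose or average probe sets therefore could not change its values, and add nothing to the count of settings kept. In contrast, 2 others are annotated to RPL27A together with the small nucleolar RNA gene SNORA3A inside it, and they differed by 0.17 and 0.20.

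RPL35A, a large-subunit protein whose loss of 1 copy causes Diamond-Blackfan anaemia, read 9.35, 9.31 and 9.35 in shCSF2 and 9.56, 9.49 and 9.65 in shCtrl. The groups did not overlap, and the widest spread was among the shCtrl arrays (SD 0.08). The log2 difference was -0.23 ± 0.05, or 1.17-fold lower (limma adjusted p = 0.0107), and it passed in all 18 other settings. Its second probe set gave -0.25 and passed too, and the third, at a log2 level of about 3, gave -0.13 and did not. A probe set shared with the zinc-finger gene ZNF391, at the level of most members, read 13.06 in shCSF2 and 13.12 in shCtrl, a difference of -0.06.

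RPL31, which sits near the exit of the peptide tunnel and is another Diamond-Blackfan anaemia gene, read 13.17, 13.21 and 13.21 in shCSF2 and 13.31, 13.32 and 13.32 in shCtrl. The groups were separate, but the difference was small, at -0.12 ± 0.03 or 1.09-fold lower (limma adjusted p = 0.0267). The call was lost when any 1 of the 6 arrays was left out, and also with cyclic loess, median centring and the replicate block (adjusted p up to 0.0875). RPL31 was the only member with more than 1 probe set in which every probe set passed. Its 2 bright probe sets gave -0.12 each, 3 others at log2 levels from 7 to 8 gave -0.73, -0.70 and -0.68, and the dimmest gave -0.31. The probe set with the greatest change read 7.35, 7.28 and 7.31 in shCSF2 and 8.11, 8.04 and 7.98 in shCtrl, 1.66-fold lower. Which transcripts the dimmer probe sets read is not given in the sources used here.

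**Figure D2:**
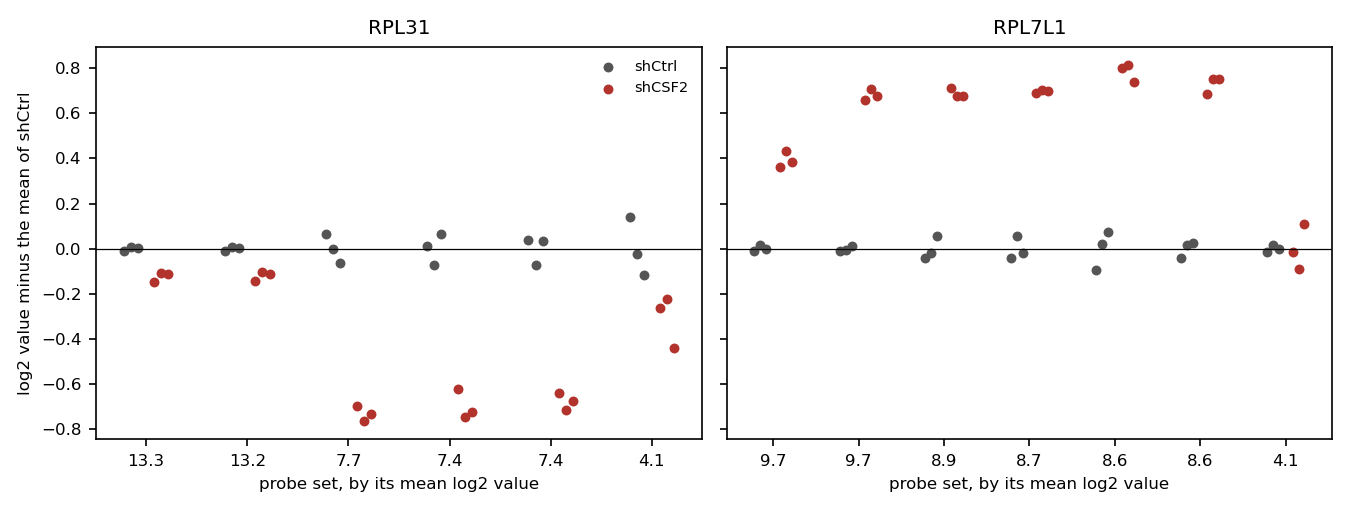
Log2 value on each array, minus the shCtrl mean, of every probe set annotated to RPL31 (6 probe sets) and to RPL7L1 (7 probe sets), ordered along the horizontal axis by mean log2 value. All RPL31 probe sets read lower in shCSF2, by 0.12 in the bright ones and by 0.68 to 0.73 at levels of 7 to 8, and 6 of 7 RPL7L1 probe sets read higher.

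The P stalk recruits elongation factors to the ribosome. Its acidic proteins RPLP1 and RPLP2 did not pass. RPLP1 read 13.55, 13.63 and 13.57 in shCSF2 and 13.55, 13.63 and 13.58 in shCtrl, a difference of -0.0036 (95% interval -0.10 to 0.09). RPLP2 differed by -0.05 (-0.12 to 0.03), and its shCSF2 arrays (13.34, 13.38 and 13.35) all lay below its shCtrl arrays (13.40, 13.41 and 13.40).

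RPL5 and RPL11 travel into the large subunit together with its smallest RNA and are the pair that binds MDM2. RPL5 differed by -0.02 (95% interval -0.12 to 0.07) with overlapping groups. RPL11 read 13.54, 13.54 and 13.53 in shCSF2 and 13.58, 13.59 and 13.60 in shCtrl, a difference of -0.05 (-0.13 to 0.02). Both lay within the range that most members occupied, and neither passed.

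RPL10, which completes the late large subunit near the peptidyl transferase centre, differed by 0.0034 in its brightest probe set (limma adjusted p = 0.951). Its 3 bright probe sets did not pass, and 2 others at a log2 level of about 8 were higher, by 0.35 and 0.43 (adjusted p = 0.00195 and 0.00119 in a fit over single probe sets). RPL13A, which also has a role outside the ribosome in silencing inflammatory messages, differed by -0.04. RPL41, a peptide of unusually small size, differed by -0.09 (limma adjusted p = 0.0918), and its second probe set by -0.22, which passed. RPL7 lay just outside the threshold at -0.11 ± 0.03 (limma adjusted p = 0.0534).

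Of the 23 small-subunit members, 0 were higher and 1 was lower (4.35%, against 32.7% of all genes), with a median difference of -0.02 and a range from -0.14 to 0.01. At an unadjusted p under 0.05, limma gave 0 higher and 2 lower, against 3661 higher and 4033 lower of all 18132 genes. RPS27, a zinc-finger protein of the small subunit and a Diamond-Blackfan anaemia gene, read 12.73, 12.70 and 12.71 in shCSF2 and 12.80, 12.83 and 12.83 in shCtrl. The groups were separate, and the difference was -0.11 ± 0.03, or 1.08-fold lower (limma adjusted p = 0.0414). It was close to the threshold: the call was lost in 11 of 17 other settings, including each of the 6 that left out 1 array (adjusted p up to 0.189). RPS9, chosen after its values were seen because it lay nearest outside the threshold, differed by -0.14 ± 0.05 (adjusted p = 0.0503).

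The small-subunit proteins with the best-known roles did not pass in their brightest probe sets. RPS6, the substrate of the S6 kinases, read 13.02, 13.01 and 13.02 in shCSF2 and 13.05, 13.05 and 13.07 in shCtrl, and its difference of -0.04 had a 95% interval from -0.11 to 0.04. Its groups did not overlap, and another of its 4 probe sets passed as lower in the fit over single probe sets (-0.14, limma adjusted p = 0.0463). RPS3, at the entry of the message channel and also a DNA repair factor, differed by -0.07 (-0.15 to 0.0021), and its groups did not overlap. RPS19, the gene most often mutated in Diamond-Blackfan anaemia, differed by -0.03 (-0.11 to 0.05), with overlapping groups. RPS4X, encoded on the X chromosome, also differed by -0.03 (-0.11 to 0.04), without overlap between the groups.

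**Figure D3:**
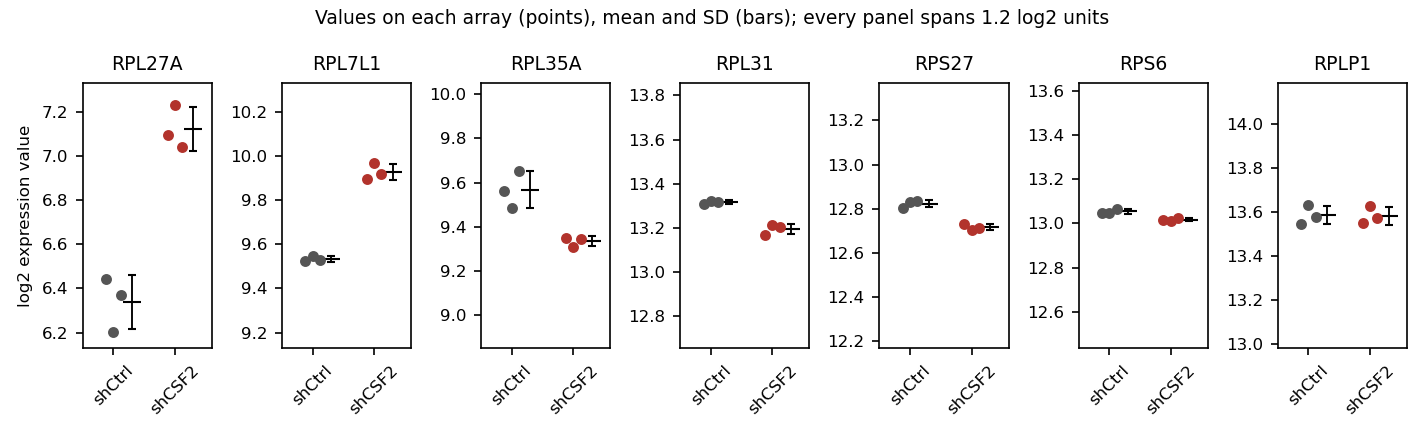
Log2 value on each array (points), with the mean and SD of each group (bars), of the 5 members that passed the test and of RPS6 and RPLP1, which did not. Every panel spans the same log2 range. The 3 shCSF2 arrays lie above the 3 shCtrl arrays for RPL27A and RPL7L1 and below them for RPL35A, RPL31 and RPS27, and the RPL31 and RPS27 means differ by -0.12 and -0.11.

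Diamond-Blackfan anaemia arises when 1 copy of certain ribosomal protein genes is lost, mostly through failure of red cell precursors. Of 19 such genes listed, 16 were measured, and 0 were higher and 3 lower (RPL35A, RPL31 and RPS27), with a median of -0.04. That is 18.8% called, against 32.7% of all genes, and 18.8% lower, against 16.0%. At an unadjusted p under 0.05, limma gave 0 higher and 4 lower, beside the all-gene counts above. These are the same 3 members that were lower in the family as a whole.

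The paralogs are made alongside, or in place of, a main ribosomal protein in some tissues. Of 8 measured, RPL7L1 was higher and 0 were lower (12.5% called, against 32.7% of all genes). At an unadjusted p under 0.05 in limma 1 was lower, RPS27L, against 4033 of all 18132 genes. RPL7L1, the counterpart of a yeast assembly factor for the large subunit, read 9.90, 9.97 and 9.92 in shCSF2 and 9.52, 9.55 and 9.53 in shCtrl. The groups were far apart relative to their spread (SD 0.04 and 0.01), and the difference was 0.39 ± 0.04, or 1.31-fold (limma adjusted p = 0.000281). Of its 7 probe sets, 6 were higher, the other 5 of them by 0.68 to 0.78. The remaining one, at a log2 level of about 4, differed by 0.0016 and is the only one without the suffix _s_at or _x_at, so the call was lost when probe sets with those suffixes were left out (adjusted p = 0.987).

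RPL7, a large-subunit protein, differed by -0.11 as above, and the difference between the paralog's and the main gene's log2 changes was 0.50 ± 0.02 (exact two-sided permutation p = 0.1, the smallest possible; Benjamini-Hochberg 0.233 over 7 pairs). It was 0.07 for RPL22L1 against RPL22 and 0.04 for RPL26L1 against RPL26, both also at exact p = 0.1. The 4 other pairs ranged from -0.07 for RPL10L against RPL10 to 0.09 for RPL3L against RPL3, with exact p from 0.2 to 0.9, and included RPS27L against RPS27 (0.01) and RPL39L against RPL39 (-0.02). This exact test cannot pass for any pair with 3 arrays per group. RPS27L, a target of p53, differed by -0.10 (95% interval -0.18 to -0.01; limma adjusted p = 0.0769). RPL36AL, whose main gene is not analysed here, differed by 0.02 (-0.07 to 0.11). The muscle form RPL3L and the testis form RPL10L had mean log2 values of 4.91 and 5.30. The non-coding genes RPL26L1-AS1 and RPL34-DT differed by -0.21 (adjusted p = 0.0953) and 0.08, at mean levels of 5.21 and 3.64.

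Over single probe sets, fitted together, 37 of the 191 that belong to members passed (19.4%, 15 higher and 22 lower), against 29.7% of all 44988. The share was larger at lower signal. It was 6 of 104 among probe sets with a mean of at least 12 (5.77%, all lower, against 23.1% of all such probe sets), 8 of 25 from 9 to under 12 (32%, against 51.3%) and 23 of 62 under 9 (37.1%, against 27.8%). Of 54 members with more than 1 probe set, 16 had at least 1 that passed, and in 13 of these the brightest did not. RPL28, an RNA-contacting protein of the large subunit chosen after its values were seen, shows the pattern: its brightest probe set differed by -0.04 and 1 of 9 by -0.33 (9.24 against 9.57). RPS28 and the large-subunit protein gene RPL32, also chosen after their values were seen, had probe sets that passed in both directions. For RPS28, a small-subunit protein, 3 of its bright probe sets were lower by 0.14 to 0.16 and 2 dim probe sets higher by 0.17 and 0.31. A further 30 probe sets were annotated to a member together with another gene entry, 3 of them to RPL37 under a repeated symbol, and they differed by -0.36 to 0.39, with a median of -0.0038.

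**Figure D4:**
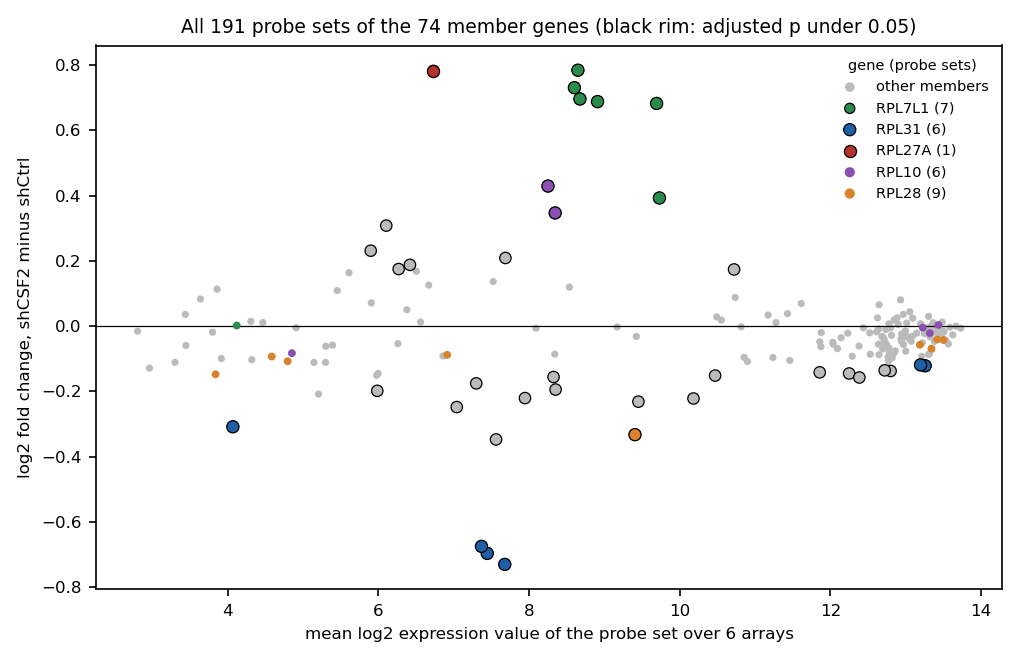
Log2 difference against mean log2 value for each of the 191 probe sets of the members, with a black rim on those that passed and 5 genes in colour. At a mean of at least 12 the points lie in a narrow band around zero, and below 9 they spread over both directions, with 12 higher and 11 lower among those that passed.

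Genes that share the family's regulation, handle its products or sense its failure were described from lists beside the same 32.7% of all genes. These lists were brighter than the array at large, with medians of the mean log2 values from 8.19 to 11.36, against 6.28. In the fit limited to genes at or above the median gene, 64.0% of all genes kept were called. The 32.7% is thus not matched to the lists for signal. Other terminal oligopyrimidine messages encode translation factors and small nucleolar RNA hosts, and 3 of 31 were higher and 4 lower (22.6%), with a median of -0.01. HNRNPA1, a splicing factor with such a message, read 12.81 in shCSF2 and 12.21 in shCtrl, a difference of 0.60 ± 0.04 or 1.51-fold (limma adjusted p = 6.8e-05). EIF3A, a scaffold of initiation factor eIF3, was higher by 0.38 and the host RNA EPB41L4A-AS1 by 0.22. The 4 lower genes, outside the rule for naming and picked with their values in view, comprised the elongation factor subunit EEF1D and the cyclin CCNI at -0.18 each and the initiation factors EIF4B and EIF3L at -0.11 each.

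Among 21 genes that control these messages, 6 were higher and 2 lower (38.1%, median 0.06). TSC1, a brake on mTOR, was higher by 0.47 ± 0.06, but by 0.09 and without a call when all its probe sets were averaged. MTOR, the kinase itself, was lower by 0.30 ± 0.04 (limma adjusted p = 0.00166). EIF4EBP2, a repressor of cap binding, was lower by 0.34 in its brightest probe set, and its direction turned with another choice of probe set. LARP1, which binds the motif, was higher by 0.18 and is named outside the rule, after its value was seen.

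In a list of chaperones, importins and other handlers of new ribosomal proteins, 8 of 22 genes were higher and 0 lower (36.4%, median 0.06). The list also holds HUWE1, UBE2O, LTV1 and RSL24D1. Of these, LTV1 and RSL24D1 were among the 8 higher genes, at 0.41 and 0.37. At an unadjusted p under 0.05, limma gave 9 higher and 3 lower, and with the signal-dependent prior 4 passed as lower. HEATR3, which helps import RPL5 and RPL11, was higher by 0.54, PDCD2L, related to the chaperone of RPS2, by 0.51, and GRWD1, the chaperone of RPL3, by 0.49. The members named with these 3 genes did not pass as higher: RPL5, RPL11, RPS2 and RPL3 differed by -0.02, -0.05, -0.04 and -0.10.

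Genes that link ribosome assembly to p53 were higher in 8 of 13 cases and lower in 1 (69.2%, median 0.15). The median of their mean log2 values was 8.86, so the 32.7% of all genes is not a share matched for signal. MYC, a driver of ribosome production, read 9.42 in shCSF2 and 8.69 in shCtrl, a difference of 0.73 ± 0.03. RRS1, which helps bring RPL5 and RPL11 into the large subunit, was higher by 0.48 and the nucleolar protein nucleolin (NCL) by 0.30. CDKN2A, chosen after its value was seen as the only lower gene, was lower by 0.28. Of 17 genes that rescue stalled ribosomes or sense collisions, 8 were higher and 3 lower (64.7%, median 0.00). The same limit holds for this list, whose mean log2 values had a median of 8.87. The recycling factor ABCE1 was higher by 0.63 and the ubiquitin ligase RNF14 by 0.43, and the collision-sensing kinase MAP3K20 was lower by 0.34.

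**Figure D5:**
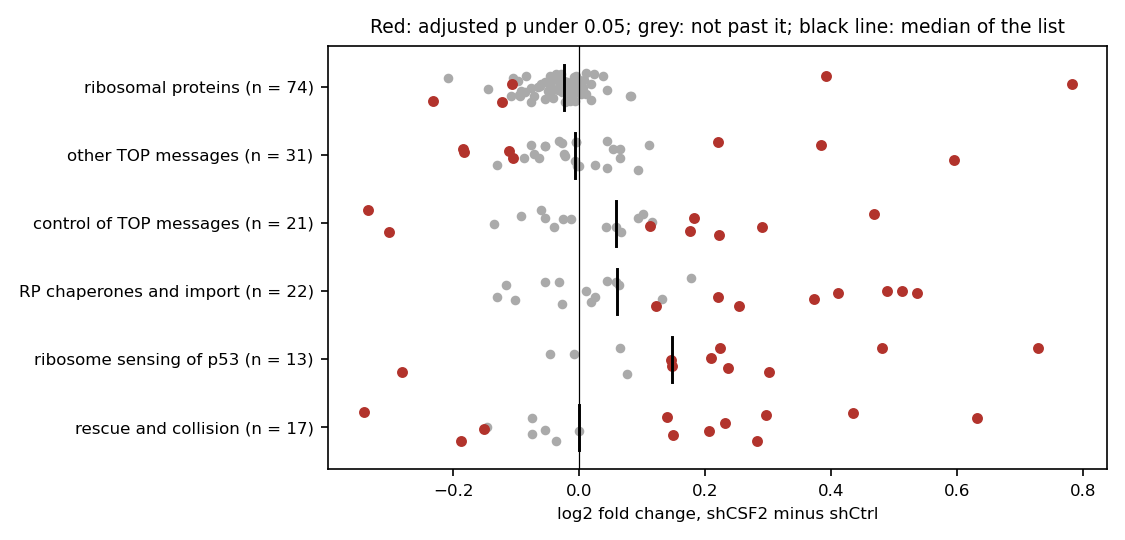
Log2 difference of each measured gene in the ribosomal protein family and in 5 related lists (TOP, terminal oligopyrimidine; RP, ribosomal protein), in red where it passed the test, with a black line at each median. The ribosomal proteins cluster at a median of -0.02, and the genes linked to p53 (median 0.15) lie mostly above zero.

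The ribosomal proteins of mitochondria, taken by the symbols MRPL and MRPS, are encoded in the nucleus and form a separate ribosome. Of 75 measured, 25 were higher (33.3%, against 16.7% of all genes) and 10 lower (13.3%, against 16.0%). That is 46.7% called, against 32.7% of all genes. Their median was 0.07, against -0.03. The mean log2 values of the mitochondrial set had a median of 9.04, against 6.28 over all genes, so these shares are not matched for signal. The difference between the families was not tested.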

How the data were processed

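The table deposited by the authors gives a log2 level for every probe set on every array. RMA, oligo and limma appear in the submitters' processing notes, with neither version nor role stated. RMA as usually run corrects background, normalizes between arrays and compresses differences at low signal. Of 49395 probe sets, 44988 were paired with 1 gene symbol in the platform annotation, 1832 with several and 2473 with none listed; 102 were controls. Symbols were checked against RefSeq (GRCh38.p14), and 0 changed. A gene was represented by its brightest probe set.

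Differences (shCSF2 minus shCtrl) were tested in R 4.3.3 with limma 3.58.1 (lmFit, then eBayes), with no filter, block or trend, Benjamini-Hochberg adjustment over 18132 genes and a threshold of 0.05. Intervals are 95% and standard errors moderated, except in the paralog pairs. Their standard error came only from the spread of the per-array differences between paralog and main gene. The p-values measure only the spread between these arrays, and 3 arrays per group limit the precision. Single values were compared by exact two-sided permutation. Start sequences came from the RefSeq table, which matched 62 of the 74 members; no other reference was used. The fit was tested on simulated data. Figures were drawn with matplotlib 3.10.9.

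The members and lists were chosen with earlier results of these data known. Named members were those past the threshold (up to 8 per direction), the P stalk, RPL5, RPL11, RPS6, RPSA, RPS19, RPS4X, RPS3, RPS27A, RPL10, RPL13A, RPL41 and the paralog pairs, and from each list the 3 passing genes with the largest change. Alternatives covered dim-gene filters, normalization, the variance model, the choice of probe set, the replicate number as a block and each array left out. Replicate numbers were not treated as pairing the samples, because no pairing is stated. Over all genes, the deviations of same-numbered arrays correlated at 0.025, 0.053 and 0.033, and those of different-numbered arrays at -0.076 to 0.044. This does not settle the matter for the members. In some of them, among them RPLP1, replicate 2 was highest in both groups, and in others it was not.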

Additional observations from a re-analysis of the deposited data

How the results depend on the processing

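The counts of members past the threshold (2 higher and 3 lower) were the values most open to processing. Members higher numbered 8 with the most variable probe set, 6 without _s_at or _x_at probe sets (43 members left) and 4 with the variance trend and robust estimation. Members lower numbered 24 with that trend, 14 among genes at or above the median gene, 12 with the mean of all probe sets, 11 among genes with a mean of at least 5, 7 with the most variable probe set, 5 with array weights, with centring on bright other genes, with quantile normalization and without _s_at or _x_at probe sets, and 1 with median centring. In either direction, 20.3% of members were called with the most variable probe set, against 32.1% of all genes. With the mean of all probe sets it was 20.3% against 33.5%. Without _s_at or _x_at probe sets it was 25.6% against 29.9%, a much smaller gap than with the brightest probe sets. With array weights it was 9.46% against 33.1%. Leaving out each array in turn gave 2 higher and 1 to 2 lower (4.05% to 5.41% called, against 27.1% to 28.4% of all genes). The members' median of -0.0238 moved to -0.0014 with cyclic loess, 0.0014 with median centring and -0.0100 with quantile normalization. Over the arrays left out it ranged from -0.0299 to -0.0212.

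With the replicate number as a block, 2 members were higher and 1 was lower, and 2 of the other terminal oligopyrimidine messages were lower; the numbers are not known to pair the samples. That list's 3 higher genes became 8 with the trend, 6 with the most variable probe set and 5 at or above the median gene. Its 4 lower genes became 11 with the trend, 2 with median centring, 0 without _s_at or _x_at probe sets, and 2 to 3 with an array left out. Genes lower among those controlling these messages went from 2 to 4 with the most variable probe set. In the list of chaperones, importins and other handlers, lower genes went from 0 to 4 with the trend. They numbered 3 with the median-gene filter and with quantile normalization, and 2 with cyclic loess, a mean of at least 5 and the most variable probe set. The count was 1 with centring on bright genes and without _s_at or _x_at probe sets, and 0 to 1 with an array left out. EIF4EBP2 turned from -0.34 to 0.0943 with the mean of all probe sets (limma adjusted p = 0.0841) and 0.4076 with the most variable probe set (adjusted p = 0.00438). Over 43 named genes and 18 settings, 704 of 756 values kept their call or lack of one, 22 lost and 28 gained a call. In 2 values, both of EIF4EBP2, a called gene turned direction. Sign changes without a call in either fit were counted as kept, as for RPL22L1 (-0.0995 to 0.0634 over the settings). The cause of these changes was not tested. A pair of choices was added after seeing the data: leaving out the 2 non-coding genes, which changed no member call, and the fit over single probe sets. With 3 arrays per group, small differences in bright probe sets lie at the limit of what the arrays resolve.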
